A study of Mus musculus with 36 samples.

Results

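Whole gonads of female mouse fetuses at embryonic day E13.5 were profiled by bulk RNA-seq in 3 control and 3 intrauterine hyperglycemia (IUHG) samples, 6 of the 36 samples of the series. Genes with a mean of at least 1 TPM (a level scaled to the library total and corrected for transcript length) in either group were compared, 18150 of 56262 gene IDs, with attention to the somatic cells. The gonads of both groups are labelled wild type. The wild-type matings of the study were of ICR mice, an outbred stock, and the strain of these gonads is not stated separately. IUHG was produced by injecting the pregnant dams with streptozotocin (STZ), a toxin of pancreatic β-cells, on day 3.5 of pregnancy, at a dose of 120 mg/kg. Dams above 14 mM blood glucose on day 6.5 were taken into the group. The control group is labelled only as control, so in these 6 libraries exposure to STZ and exposure to high glucose cannot be told apart. Each sample was a pool of several pairs of gonads, the litters behind a pool are not given in the sources used here, and p-values measure the spread between these pools.

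At E13.5 the fetal ovary consists of germ cells that begin meiosis, supporting cells called pregranulosa cells, a surface epithelium, an interstitium of mesenchymal cells that lay down extracellular matrix, and vessels that carry blood cells and macrophages. Pregranulosa cells depend on FOXL2 and on WNT4 and R-spondin signalling through β-catenin, whereas the supporting cells of the testis, Sertoli cells, express SOX9 and anti-Müllerian hormone (AMH). The adrenal gland and the mesonephros, the transient kidney, lie next to the gonad. In whole tissue, fewer cells of a type and less RNA per cell cannot be told apart.

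The libraries held 3.89 to 4.95 gigabases of aligned sequence, with each of the 3 IUHG libraries (3.89 to 4.52 gigabases) below the 3 control libraries (4.57 to 4.95 gigabases). The label of female was checked with Y-linked genes. *Eif2s3y* and *Ddx3y* stood at 27.5 and 11.4 TPM in control 1 and were listed at 0 in the other 5 libraries. Control 1 also held *Amh* at 178 TPM (0.649 to 1.48 TPM elsewhere) and *Insl3*, a hormone gene of fetal Leydig cells, at 117 TPM (0.206 to 0.742 TPM elsewhere). Adrenal transcripts were present in control 1 and in IUHG 3. *Cyp21a1*, an enzyme gene of the adrenal cortex, was at 7.81 TPM in control 1 and 8.94 TPM in IUHG 3 and at most 0.179 TPM in the other 4 libraries. *Th*, the tyrosine hydroxylase gene of catecholamine cells, was at 29.0 TPM in control 1 and 12.9 TPM in IUHG 3 and at most 0.615 TPM elsewhere. The mesonephros marker *Pax8* was detected in every library, at 30.2 to 43.0 TPM, so part of that tissue was in all 6 samples. Pregranulosa markers were present in all 6 libraries, with *Foxl2* lowest in control 1. Results below are given for all 6 libraries, list counts also without control 1, and calls of named genes that were lost without control 1 are marked.

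**Figure D1:**
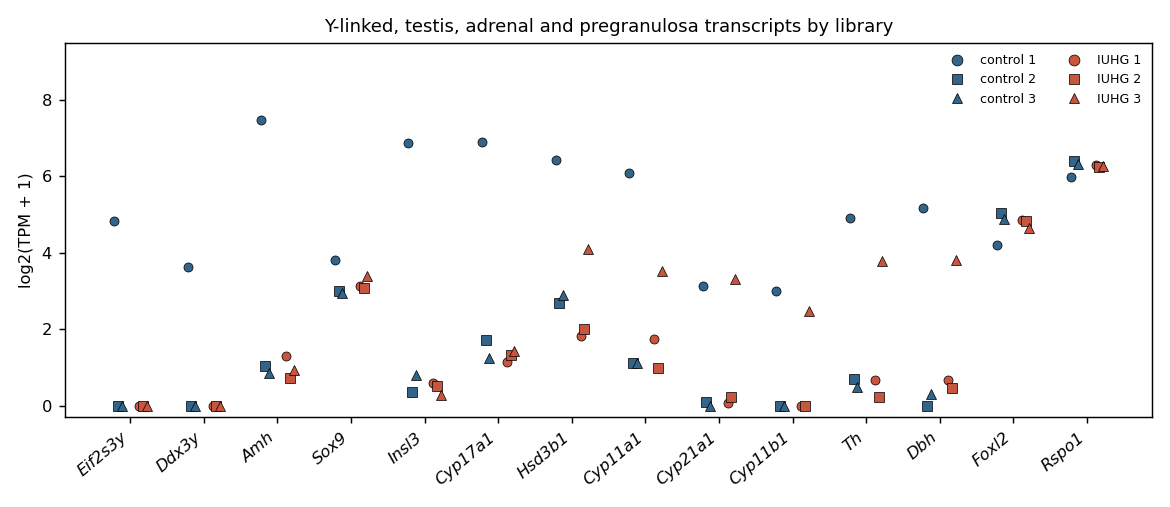
Level of each gene as log2(TPM + 1), on the vertical axis, in the 3 control and 3 IUHG libraries (points, marked by replicate number). Control 1 stands alone for Y-linked and testis genes, and control 1 and IUHG 3 together stand above the other 4 libraries for the adrenal genes *Cyp21a1*, *Cyp11b1*, *Th* and *Dbh*.

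A small part of the genes tested passed an adjusted threshold between IUHG and control gonads. With 3 libraries a group, these counts do not measure how much of the transcriptome differed. With DEGs (differentially expressed genes) defined by a limma adjusted p below 0.05 together with a log2 fold change of 1 or more in size, 69 genes rose and 42 fell, 0.612% of the 18150 genes tested (0.38% upward and 0.231% downward). With no limit on the fold change, 259 rose and 190 fell, 2.47% of all genes (1.43% upward and 1.05% downward), and 19.9% had an unadjusted p below 0.05. In 25.8% of genes both groups of libraries did not overlap, with IUHG above control in 14.5% and below it in 11.3%. The median log2 fold change of all genes was 0.0074. Without control 1, 63 genes rose and 47 fell (0.607% of 18128 genes, 0.348% upward and 0.259% downward), of which 42 and 26 were also called with all 6 libraries. Past the adjusted p alone 1.83% of genes were then called (0.971% upward and 0.861% downward). The number of DEGs was 47 without control 2, 83 without control 3, 45 without IUHG 1, 38 without IUHG 2 and 52 without IUHG 3. The count past the adjusted p alone, 449, became 332 without control 1, 103 without control 2, 193 without control 3, 104 without IUHG 1, 63 without IUHG 2 and 132 without IUHG 3.

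Somatic and germ cell transcripts were separated by comparison with purified primordial germ cells (PGCs) of E13.5 female fetuses, sequenced in 3 control and 3 IUHG libraries from fetuses of *Oct4-EGFP* transgenic fathers and sorted by EGFP, a fluorescent protein. Genes with at least 4 times more TPM in gonads than in PGCs are called gonad-enriched here, and those with at least 4 times more in PGCs are called PGC-enriched. Gonad-enriched genes made up 34.3% of all genes tested, 61.9% of the DEGs that fell (26 of 42) and 21.7% of the DEGs that rose (15 of 69). PGC-enriched genes made up 5.25% of all genes tested, 39.1% of the DEGs that rose (27 genes) and 7.14% of those that fell (3 genes). Past the adjusted p alone, 125 gonad-enriched genes fell and 47 rose, while 66 PGC-enriched genes rose and 3 fell. Gonads and PGCs were made into libraries by different protocols, so this ratio is a guide to the cell of origin and was used for sorting only.

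**Figure D2:**
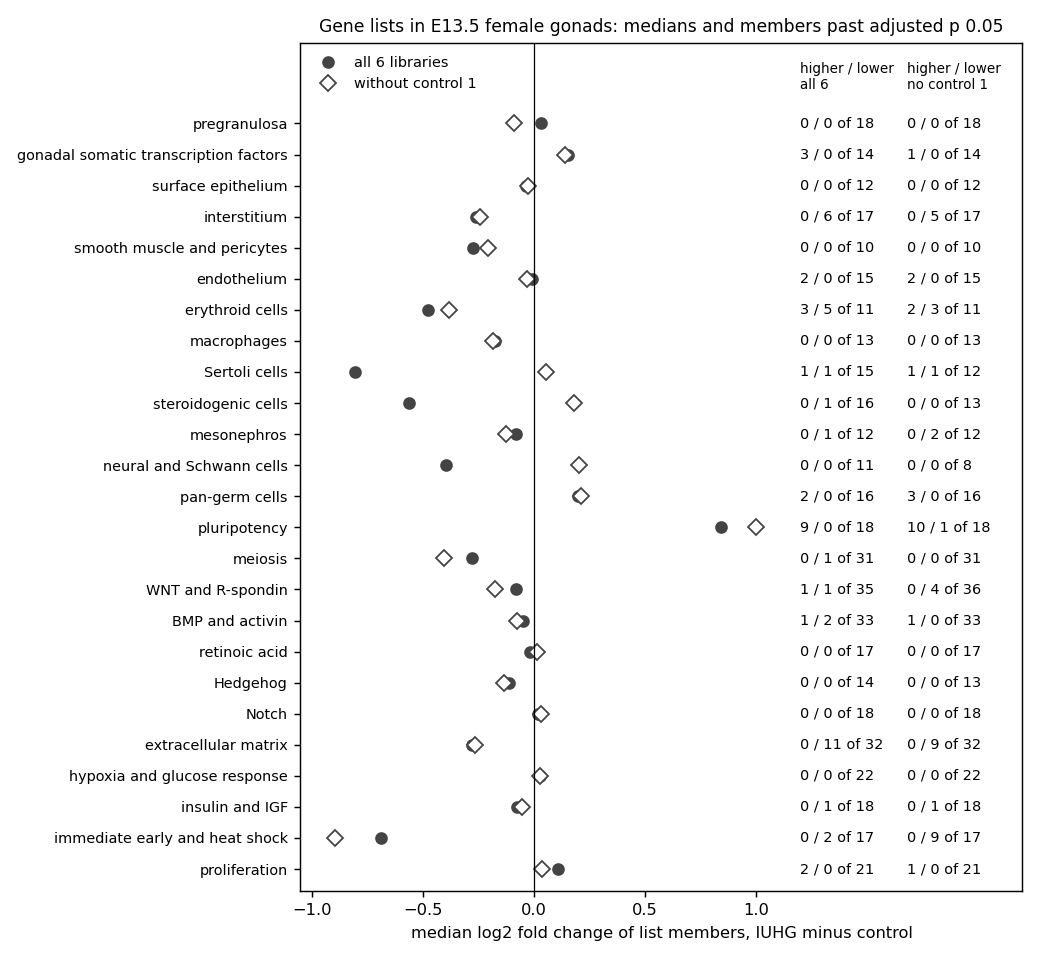
Median log2 fold change (IUHG minus control, of TPM + 1) of the tested members of 25 gene lists, for all 6 libraries (filled circles) and without control 1 (open diamonds), with the number of members past an adjusted p of 0.05 in each direction printed at the right. Extracellular matrix and interstitium lie to the left of 0 in both, pluripotency to the right in both, and the Sertoli, steroidogenic and neural lists are among those that move across 0 when control 1 is left out.

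None of the 18 pregranulosa genes passed the test, with all libraries or without control 1. An unadjusted p below 0.05 in limma was found for 4 of them, where 19.9% of all genes had one. The median log2 fold change was 0.03 (-0.09 without control 1). *Foxl2*, which maintains the ovarian fate of supporting cells, stood at 17.6, 32.1 and 28.4 TPM in control and 27.9, 27.5 and 24.0 TPM in IUHG gonads. Control 1 was the lowest library, and the others overlapped. *Rspo1*, the R-spondin of the fetal ovary, stood at 62.3, 83.3 and 79.7 TPM in control and 78.3, 74.7 and 76.7 TPM in IUHG gonads (log2 fold change 0.04, standard error 0.101, limma adjusted p = 0.87). Its ligand partner *Wnt4* was at 72.4 to 87.3 TPM in control and 77.3 to 79.2 TPM in IUHG gonads (log2 fold change -0.01, adjusted p = 0.93). *Fst*, the activin antagonist follistatin, also had control 1 as its lowest library (38.1 TPM, against 55.1 to 63.3 TPM in the other 5). *Bmp2*, a ligand of pregranulosa cells, was at 13.51, 16.4 and 19.4 TPM in control and 20.8, 19.7 and 21.1 TPM in IUHG gonads. The *Bmp2* groups did not overlap, but the difference was not past the threshold (log2 fold change 0.32, adjusted p = 0.20). *Kitl*, the ligand of the germ cell receptor KIT, overlapped between groups (log2 fold change 0.12, adjusted p = 0.66). Summed over the 18 genes, TPM was 662, 848 and 885 TPM in control and 801, 809 and 797 TPM in IUHG gonads, so the IUHG libraries lay above control 1 and below the other controls.

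Of 14 transcription factor genes shared by the somatic cells of the early gonad, 3 rose, 11 did not pass and none fell (median 0.16). Of all genes, 1.43% rose. *Wt1*, needed for gonad formation, stood at 239, 257 and 259 TPM in control and 296, 309 and 304 TPM in IUHG gonads (log2 fold change 0.27, standard error 0.0471, limma adjusted p = 0.031). The LIM homeobox gene *Lhx9* stood at 50.9, 58.0 and 58.2 TPM in control and 74.8, 84.6 and 70.4 TPM in IUHG gonads (log2 fold change 0.45, standard error 0.0831, limma adjusted p = 0.035). *Cbx2*, a Polycomb gene required for gonad growth, rose as well (log2 fold change 0.33, adjusted p = 0.045). In these 3 genes every IUHG library lay above every control library. *Gata4* did not overlap either, at 89.9 to 95.4 TPM in control and 98.8 to 112 TPM in IUHG gonads, but was not past the threshold (adjusted p = 0.15). The steroidogenic factor gene *Nr5a1* was past it only without control 1 (log2 fold change 0.30, adjusted p = 0.044), where *Wt1*, *Lhx9* and *Cbx2* had adjusted p of 0.054, 0.062 and 0.083. Each of the 3 calls was also lost in every fit without 1 of the other 5 libraries, with adjusted p up to 0.11, 0.11 and 0.14.

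Genes of the interstitial extracellular matrix formed the largest group of somatic genes that fell among the lists examined. In this tissue collagens are secreted by mesenchymal cells, and small proteoglycans such as lumican and decorin bind the collagen fibrils. Of 32 extracellular matrix genes 11 fell and none rose, 34.4% against 1.05% of all genes, with a median log2 fold change of -0.28. Without control 1, 9 fell and none rose (median -0.27). The count was 6 without control 2, 11 without control 3, 8 without IUHG 1, 5 without IUHG 2 and 8 without IUHG 3, all downward.

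*Col1a1*, the major chain of type I collagen (ENSMUSG00000001506.10, chromosome 11, 94936224 to 94953042 on GRCm38), stood at 511, 511 and 514 TPM in control and 319.6, 331 and 343 TPM in IUHG gonads. The 3 controls lay between 511 and 514 TPM, and each IUHG library lay below them (log2 fold change -0.63, standard error 0.0419, limma adjusted p = 8.3e-04). Its partner chain *Col1a2* stood at 717, 725 and 667 TPM in control and 513, 543 and 561 TPM in IUHG gonads (log2 fold change -0.38, standard error 0.0513, limma adjusted p = 0.013). *Col3a1*, the fibrillar collagen of soft tissues, stood at 1091, 1183 and 1036 TPM in control and 802, 844 and 811 TPM in IUHG gonads (log2 fold change -0.43, standard error 0.0547, limma adjusted p = 0.011). *Col5a1*, a chain of the collagen that nucleates fibrils, fell less (log2 fold change -0.30, adjusted p = 0.035). In none of these 4 genes did the groups overlap. *Lum*, encoding lumican (ENSMUSG00000036446.5, chromosome 10, 97565128 to 97572703), stood at 148, 163 and 154 TPM in control and 69.2, 88.5 and 81.4 TPM in IUHG gonads and had the largest decrease of the list (log2 fold change -0.96, standard error 0.0872, limma adjusted p = 0.0028). *Dcn*, encoding decorin, stood at 440.4, 485 and 408 TPM in control and 257, 320.0 and 276 TPM in IUHG gonads (log2 fold change -0.64, standard error 0.0889, limma adjusted p = 0.015). *Eln*, encoding elastin, the core of elastic fibres, stood at 54.2, 58.2 and 44.5 TPM in control and 27.8, 29.6 and 25.1 TPM in IUHG gonads (log2 fold change -0.90, standard error 0.106, limma adjusted p = 0.0091). The microfibril-forming collagen VI chains *Col6a1* and *Col6a2* fell by 0.38 each on the log2 scale (adjusted p = 0.011 and 0.0070). The proteoglycan gene *Vcan* (log2 fold change -0.38, adjusted p = 0.029) and the fibronectin gene *Fn1* (log2 fold change -0.28, adjusted p = 0.048) fell as well. *Col1a1*, *Lum*, *Eln* and *Col6a2* were past the threshold in each fit that left out 1 library. *Col3a1* was not without IUHG 2 (adjusted p = 0.051), *Col1a2* was not without control 2 or IUHG 2 (adjusted p up to 0.061), and *Fn1* and *Col5a1* were not without control 1 (adjusted p = 0.092 and 0.057). *Dcn*, *Col6a1*, *Vcan*, *Col5a1* and *Fn1* were followed singly only in the fit without control 1. The whole matrix list had 6 calls without control 2 and 5 without IUHG 2, so most of these genes lost the call there.

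The decrease was uneven within the matrix. The list was split, after its values were seen, into 13 basement membrane genes and 19 others. All 19 others had a negative log2 fold change, from -0.96 to -0.19, and 11 passed. None of the 13 basement membrane genes passed, 9 were negative, and their median was -0.07 against -0.38 for the others. The collagen IV genes *Col4a1* and *Col4a2* had log2 fold changes of -0.13 and -0.05, the nidogen gene *Nid2* 0.09 and the laminin gene *Lamc1* 0.16, with overlapping groups in each. The lowest basement membrane gene, *Lama2*, had a log2 fold change of -0.48. In 2 of the 13 basement membrane genes and 18 of the 19 others every IUHG library lay below every control, against 11.3% of all genes. The difference between the 13 and the 19 genes was not tested.

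**Figure D3:**
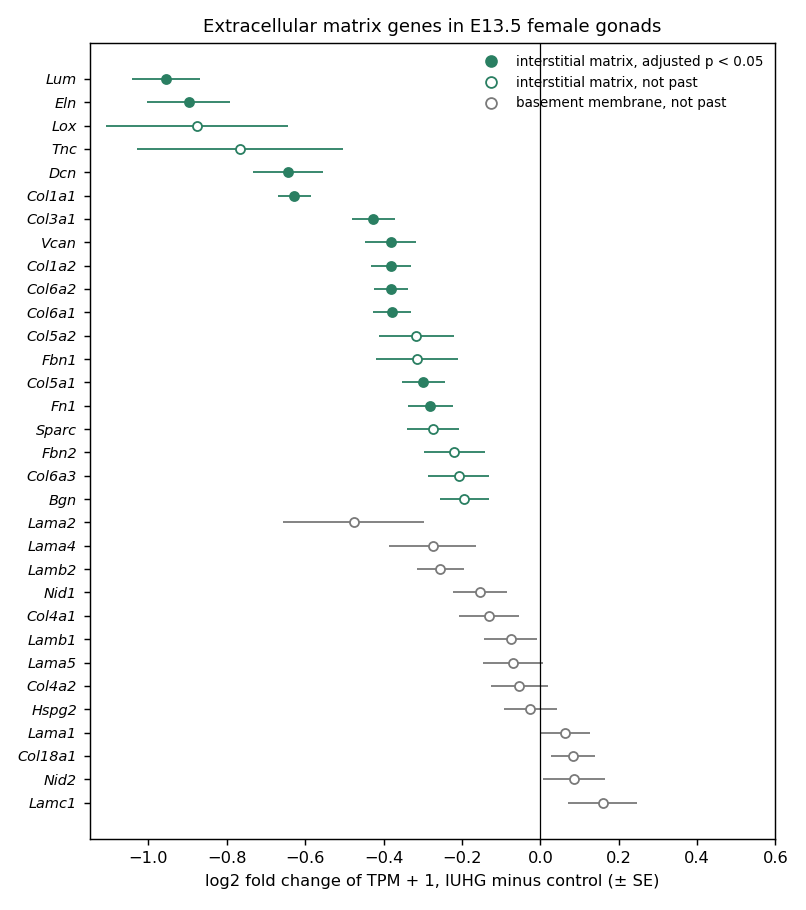
Log2 fold change of TPM + 1 (IUHG minus control, horizontal axis) for the 32 extracellular matrix genes, with bars of 1 standard error of the limma fit. Filled points are past an adjusted p of 0.05, all on the side of lower values, and the basement membrane genes (grey) have a median of -0.07, against -0.38 for the others (green), with *Lama2* the farthest grey point below 0.

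The interstitium list, which shares 5 genes with the matrix list, had 6 of 17 genes lower, against 1.05% of all genes, and none higher (median -0.26, 5 lower without control 1). These were the matrix genes *Col1a1*, *Lum*, *Col3a1*, *Col1a2*, *Dcn* and *Postn*. *Postn*, encoding periostin, stood at 212, 228 and 146 TPM in control and 102, 118 and 113 TPM in IUHG gonads (log2 fold change -0.79, standard error 0.149, limma adjusted p = 0.038), and its adjusted p was 0.079 without control 1. The count was 3 without control 2, 6 without control 3, 5 without IUHG 1, 3 without IUHG 2 and 4 without IUHG 3. *Nr2f2*, a transcription factor gene of interstitial cells, stood at 213, 235 and 233 TPM in control and 205, 220.1 and 243 TPM in IUHG gonads (log2 fold change -0.03, standard error 0.0691, limma adjusted p = 0.86). The receptor gene *Pdgfra* did not overlap between groups, at 102 to 128 TPM in control and 86.8 to 101 TPM in IUHG gonads, and was not past the threshold (log2 fold change -0.26, standard error 0.0896, limma adjusted p = 0.16). Summed TPM of the 17 genes was 4511, 4569.8 and 4150.2 TPM in control and 3119.6, 3387 and 3439 TPM in IUHG gonads.

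Few members of the signalling pathways between somatic cells passed the adjusted threshold. Supporting cells instruct interstitial cells through the Hedgehog pathway. In limma 3 of its 14 genes had an unadjusted p below 0.05, where 19.9% of all genes had one. None of the 14 genes of the pathway passed (median -0.11). Its transcriptional target *Gli1* stood at 111, 81.2 and 85.9 TPM in control and 65.4, 60.2 and 69.6 TPM in IUHG gonads, lower in each IUHG library but not past the threshold (log2 fold change -0.50, standard error 0.114, limma adjusted p = 0.062). The Hedgehog-binding inhibitor *Hhip* was lower in each IUHG library as well and also not past it (log2 fold change -0.98, standard error 0.242, limma adjusted p = 0.073). Of 35 WNT and R-spondin genes, *Lgr4*, a receptor for R-spondins, rose (log2 fold change 0.32, standard error 0.0653, limma adjusted p = 0.048) and *Sfrp1*, a secreted WNT inhibitor, fell (log2 fold change -0.34, standard error 0.0554, limma adjusted p = 0.027). The call of *Lgr4* was lost in each fit without 1 library (adjusted p up to 0.14), and that of *Sfrp1* without control 2 or any 1 IUHG library (adjusted p up to 0.099). In limma 18 of the 35 WNT and R-spondin genes had an unadjusted p below 0.05, where 19.9% of all genes had one. Every IUHG library lay below every control in 12 of the 35 and above in 3, against 11.3% and 14.5% of all genes. Without control 1, 4 WNT and R-spondin genes were lower past the adjusted p, namely *Notum*, *Sfrp1*, *Sp5* and *Wnt2b*. *Notum*, a feedback inhibitor induced by β-catenin, stood at 85.8, 103 and 119.9 TPM in control and 83.8, 78.6 and 83.2 TPM in IUHG gonads, with log2 fold changes of -0.31 (adjusted p = 0.16) with control 1 and -0.44, adjusted p = 0.035 without it.

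Of 33 BMP and activin genes, *Chrd*, the BMP antagonist chordin, and the inhibitory *Smad7* fell (log2 fold changes -0.45 and -0.35, adjusted p = 0.040 and 0.045), and both lost the call in each fit without 1 library (adjusted p up to 0.12 and 0.13). *Zglp1*, a germ cell factor downstream of BMP, rose in whole gonads, at 6.86, 10.1 and 11.4 TPM in control and 15.1, 18.5 and 18.6 TPM in IUHG gonads (log2 fold change 0.84, standard error 0.172, limma adjusted p = 0.046). It stayed past the threshold without control 1 and lost the call in each fit without 1 of the other 5 libraries (adjusted p up to 0.14). In PGCs *Zglp1* had means of 107 TPM in control and 108 TPM in IUHG PGCs. Of the 33 BMP and activin genes, 9 had an unadjusted p below 0.05 in limma, against 19.9% of all genes. Every IUHG library lay below every control in 9 of the 33 and above in 3, against 11.3% and 14.5% of all genes. None of 17 retinoic acid genes and none of 18 Notch genes passed in limma (medians -0.02 and 0.02). In each of these lists 6 genes had an unadjusted p below 0.05 in limma, where 19.9% of all genes had one. Of 18 insulin and IGF genes, *Igfbp2*, which binds insulin-like growth factors, fell, at 514, 554 and 594 TPM in control and 452, 439.9 and 450.2 TPM in IUHG gonads (log2 fold change -0.30, standard error 0.0557, limma adjusted p = 0.035), also without control 1 (adjusted p = 0.019), and the call was lost in each fit without 1 of the other 5 libraries (adjusted p up to 0.12). None of 22 genes that respond to hypoxia or glucose passed in limma (median 0.03, 6 at an unadjusted p below 0.05). The glucose-induced gene *Txnip* had a log2 fold change of 0.16 and the glucose transporter gene *Slc2a1* of 0.01, with overlapping groups.

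Red blood cell transcripts differed in kind. Embryonic globins (*Hba-x*, *Hbb-y*, *Hbb-bh1*) are carried by primitive erythrocytes from the yolk sac. Definitive erythrocytes from the fetal liver carry adult globins (*Hba-a1*, *Hba-a2*, *Hbb-bs*, *Hbb-bt*). These names group the genes only, and the kind of red cell behind each transcript was not measured. In IUHG gonads the 3 embryonic globins rose and the 4 adult globins fell. The β-like genes lie side by side on chromosome 7 and the α-like genes on chromosome 11. Of 11 erythroid genes 3 rose and 5 fell (2 and 3 without control 1), where 1.43% of all genes rose and 1.05% fell. For fetuses of *Oct4-EGFP* fathers, the study reports a developmental delay under IUHG, with lower weight and shorter crown-rump length at E13.5. The part of developmental stage in the globin and other differences was not tested.

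For orientation, the 150 bases before the RefSeq start of 6 of the 7 genes are shown, on GRCm38.p6 and 5′ to 3′, since genes of 1 locus moved in opposite directions. Capitals mark 4 motifs searched on both strands, the TATA box as TATAAA, the CCAAT box, the CACCC box bound by the erythroid factor KLF1, and the GATA motif as AGATAA. *Hbb-bh1* is named only. 
Hba-x (chr11:32276450-32276599, plus strand): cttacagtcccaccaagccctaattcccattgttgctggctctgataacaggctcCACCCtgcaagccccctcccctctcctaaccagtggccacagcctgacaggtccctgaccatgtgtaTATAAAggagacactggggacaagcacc
Hbb-y (chr7:103853208-103853357, minus strand): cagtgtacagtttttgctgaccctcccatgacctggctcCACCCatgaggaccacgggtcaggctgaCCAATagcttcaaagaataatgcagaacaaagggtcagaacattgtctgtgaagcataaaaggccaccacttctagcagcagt
Hba-a1 (chr11:32283522-32283671, plus strand): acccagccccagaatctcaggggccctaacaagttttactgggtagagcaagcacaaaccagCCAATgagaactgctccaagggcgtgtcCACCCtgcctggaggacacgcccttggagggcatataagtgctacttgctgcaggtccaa
Hba-a2 (chr11:32296342-32296491, plus strand): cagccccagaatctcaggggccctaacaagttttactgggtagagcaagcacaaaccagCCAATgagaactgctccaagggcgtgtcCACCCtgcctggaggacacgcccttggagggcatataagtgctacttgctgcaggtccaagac
Hbb-bs (chr7:103827929-103828078, minus strand): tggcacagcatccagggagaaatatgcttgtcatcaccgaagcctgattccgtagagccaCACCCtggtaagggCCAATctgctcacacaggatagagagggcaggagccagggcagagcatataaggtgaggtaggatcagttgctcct
Hbb-bt (chr7:103813924-103814073, minus strand): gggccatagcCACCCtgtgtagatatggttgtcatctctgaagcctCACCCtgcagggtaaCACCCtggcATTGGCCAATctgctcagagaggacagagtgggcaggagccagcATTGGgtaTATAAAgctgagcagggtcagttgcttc
The CACCC box was found in all 6 windows, the CCAAT box in 5 (all but Hba-x), the TATA box in 2 (Hba-x and Hbb-bt) and the GATA motif in none of them. Only these exact letters were searched, so variants of a motif in the windows were not counted. Of 32843 windows of the same length over all RefSeq promoters, 37.4% held the CACCC box, 24.5% the CCAAT box, 7.58% the TATA box and 5.65% the GATA motif. The Hba-a1 and Hba-a2 windows share an identical stretch of 147 bases, so these 2 adult genes cannot be told apart by this sequence, whereas the longest stretch shared by Hbb-bs and Hbb-bt is 14 bases.

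*Hbb-bs* (ENSMUSG00000052305.6, chromosome 7, 103826534 to 103828096) stood at 3216, 2612 and 2899 TPM in control and 1341, 1015 and 995 TPM in IUHG gonads (log2 fold change -1.39, standard error 0.118, limma adjusted p = 0.0023). *Hbb-bt* stood at 1591, 1107 and 1449.5 TPM in control and 744, 557 and 547 TPM in IUHG gonads (log2 fold change -1.16, standard error 0.151, limma adjusted p = 0.011). The highest IUHG library lay below the lowest control library for both. The α-globin genes fell less, with 6366, 5142 and 5957 TPM in control and 4527, 3899 and 4369 TPM in IUHG gonads for *Hba-a1* (log2 fold change -0.45, standard error 0.0863, limma adjusted p = 0.040). *Hba-a2* stood at 3139, 2443 and 2746 TPM in control and 2016, 1851 and 2104 TPM in IUHG gonads (log2 fold change -0.47, standard error 0.0891, limma adjusted p = 0.037). *Hbb-bs* and *Hbb-bt* share 53.5% and 59.4% of the 31-base words of their transcripts with each other, and *Hba-a1* and *Hba-a2* share 71.3% and 91.0%, so the split of reads within each pair is uncertain.

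Among the embryonic genes, *Hba-x* (ENSMUSG00000055609.8, chromosome 11, 32276400 to 32278116) stood at 253, 242 and 262 TPM in control and 444, 413 and 559 TPM in IUHG gonads (log2 fold change 0.89, standard error 0.1004, limma adjusted p = 0.0070). *Hbb-y* stood at 2627, 2369 and 2377 TPM in control and 3282, 3210.1 and 3981 TPM in IUHG gonads (log2 fold change 0.50, standard error 0.0846, limma adjusted p = 0.029). *Hbb-bh1* stood at 21.7, 22.5 and 33.9 TPM in control and 48.8, 44.9 and 74.9 TPM in IUHG gonads (log2 fold change 1.07, standard error 0.214, limma adjusted p = 0.044). For all 3 genes the lowest IUHG library exceeded the highest control library.

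As a share of all β-like globin TPM, embryonic genes held 35.5, 39.1 and 35.7% in control and 61.5, 67.4 and 72.5% in IUHG gonads, 36.8% ± 2.05 and 67.1% ± 5.48 (SD, n = 3). As a share of α-like globin TPM, *Hba-x* held 2.87% ± 0.255 in control and 7.00% ± 0.841 in IUHG gonads (SD, n = 3). Neither share overlapped between groups, and both describe genes already tested one by one. Summed globin TPM was 17213, 13939 and 15724 TPM in control and 12403, 10991 and 12630.2 TPM in IUHG gonads. The ratio of α-like to β-like TPM, 1.28 to 1.33 in control and 1.26 to 1.29 in IUHG gonads, overlapped. Of the other erythroid genes, *Alas2*, the heme synthesis enzyme of red cells, stood at 39.2, 34.0 and 33.0 TPM in control and 20.5, 26.3 and 26.1 TPM in IUHG gonads and its log2 fold change was -0.53 (limma adjusted p = 0.0501). *Hbb-bs* and *Hba-x* were past the threshold in each fit without 1 library, and *Hbb-bt* was not without IUHG 2 (adjusted p = 0.060). Without control 1, the adjusted p was 0.086 for *Hbb-bh1* and 0.078 for *Hba-a1*. The calls of *Hbb-bh1* and *Hba-a1* were each kept in only 1 of the 6 fits without 1 library, and both were lost with the other scalings of the libraries, with no change of direction. *Hbb-y* kept its call without control 1 and without IUHG 3 only (adjusted p up to 0.097). The number of erythroid calls was 5 without control 1, 6 without control 2, 4 without control 3, 3 without IUHG 1, 2 without IUHG 2 and 4 without IUHG 3.

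**Figure D4:**
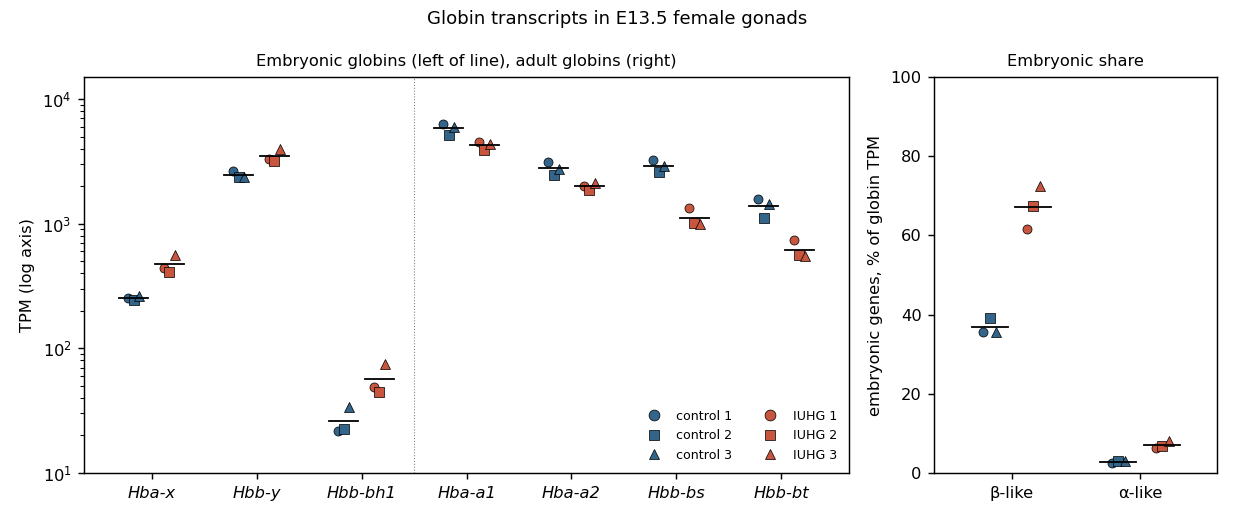
Left, TPM of the 7 globin genes on a log axis in each control and IUHG library (points, marked by replicate number) with group means (lines). Right, embryonic genes as a percentage of β-like and of α-like globin TPM, where the IUHG libraries lie at 61.5% to 72.5% of β-like TPM and the control libraries at 35.5% to 39.1%.

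Few genes of vessels, muscle, macrophages and epithelia passed the test. Of 15 endothelial genes 2 rose, against 1.43% of all genes. *Sox18*, a transcription factor of endothelial and lymphatic differentiation, stood at 22.4, 19.7 and 18.6 TPM in control and 30.1, 29.4 and 32.2 TPM in IUHG gonads (log2 fold change 0.57, standard error 0.0860, limma adjusted p = 0.019). It was also past the threshold without control 1 (adjusted p = 0.015) and lost the call in each fit without 1 of the other 5 libraries (adjusted p up to 0.073). *Pecam1*, an adhesion molecule of endothelium that germ cells also express, rose (log2 fold change 0.43, standard error 0.0654, limma adjusted p = 0.020) and had means of 62.4 TPM in control and 141 TPM in IUHG PGCs. Its call was lost without control 2, control 3, IUHG 2 or IUHG 3 (adjusted p up to 0.094). *Cdh5*, the cadherin of endothelium that PGCs here had at 0.136 TPM, stood at 51.0, 55.7 and 53.3 TPM in control and 46.5, 52.6 and 58.3 TPM in IUHG gonads (adjusted p = 0.88), and the endothelial median was -0.01. None of 10 smooth muscle and pericyte genes, 13 macrophage genes, 12 surface epithelium genes and 11 neural genes passed, with all libraries or without control 1 (medians -0.27, -0.17, -0.04 and -0.40, and 5, 2, 5 and 2 at an unadjusted p below 0.05 in limma). Over all genes, 19.9% had an unadjusted p below 0.05. *Acta2*, smooth muscle actin, had control 1 as its highest library at 108 TPM and 49.0 to 73.4 TPM in the others. The macrophage receptor gene *Csf1r* was at 14.9 to 16.2 TPM in control and 14.3 to 15.7 TPM in IUHG gonads (adjusted p = 0.79). The surface epithelium marker *Upk3b* had an adjusted p of 0.54 and the keratin gene *Krt19* of 0.21.

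Among 12 mesonephros genes, *Wnt7a*, expressed by the Müllerian duct epithelium, fell, at 14.1, 16.1 and 19.1 TPM in control and 10.3, 10.2 and 9.72 TPM in IUHG gonads (log2 fold change -0.65, standard error 0.116, limma adjusted p = 0.034). Without control 1, *Wnt7a* and *Wfdc2*, a secreted protein gene of duct epithelia, were lower (log2 fold changes -0.74, adjusted p = 0.024, and -0.52, adjusted p = 0.019), and *Wnt7a* lost the call in each fit without 1 of the other 5 libraries (adjusted p up to 0.11). *Pax8* stood at 32.7, 35.5 and 43.0 TPM in control and 32.0, 30.2 and 30.6 TPM in IUHG gonads, lower in each IUHG library but not past the threshold (adjusted p = 0.22). Summed TPM of the 12 genes was 248, 296 and 301 TPM in control and 243, 258 and 247 TPM in IUHG gonads.

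The testis and steroidogenic lists had 1 library, control 1, far above the rest. Summed TPM of 15 Sertoli genes was 582, 90.4 and 95.3 TPM in control and 109, 108 and 106 TPM in IUHG gonads. Of these genes 1 rose and 1 fell, also without control 1. *Mro*, a gene of male supporting cells, stood at 19.4, 6.00 and 8.39 TPM in control and 2.60, 2.42 and 1.77 TPM in IUHG gonads, lower in each IUHG library (log2 fold change -1.77, adjusted p = 0.042, and -1.32, adjusted p = 0.025, without control 1). Its call was lost without control 3 or any 1 IUHG library (adjusted p up to 0.12). *Dmrt1*, which germ cells also express, rose (log2 fold change 0.82, standard error 0.109, limma adjusted p = 0.013), and had means of 94.1 TPM in control and 154 TPM in IUHG PGCs. Among the fits without 1 library, *Dmrt1* lost the call only without IUHG 2 (adjusted p = 0.053). *Sox9* stood at 13.0, 6.96 and 6.76 TPM in control and 7.75, 7.47 and 9.51 TPM in IUHG gonads, and *Dhh*, the Hedgehog ligand of Sertoli cells, at 12.3 TPM in control 1 and 0.403 to 0.843 TPM elsewhere. Of 16 steroidogenic genes, *Hsd3b6* fell, at 7.93, 6.01 and 6.62 TPM in control and 3.87, 2.11 and 2.28 TPM in IUHG gonads (log2 fold change -1.09, standard error 0.199, limma adjusted p = 0.035), with an adjusted p of 0.075 without control 1. Its call was also lost without control 2, control 3, IUHG 2 or IUHG 3 (adjusted p up to 0.11). The side-chain cleavage enzyme gene *Cyp11a1* was at 67.6 TPM in control 1, 10.5 TPM in IUHG 3 and 0.976 to 2.35 TPM elsewhere. The part of testis and adrenal transcripts in other results was not tested, apart from the fits without control 1 and without IUHG 3.

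Immediate early genes, transcription factor genes that cells switch on within minutes of a stimulus, had lower values in IUHG gonads. *Fos* stood at 64.8, 126 and 171 TPM in control and 15.1, 23.3 and 37.2 TPM in IUHG gonads (log2 fold change -2.19, standard error 0.378, limma adjusted p = 0.030). *Jun* stood at 147, 171 and 207 TPM in control and 97.1, 102 and 125 TPM in IUHG gonads (log2 fold change -0.69, standard error 0.132, limma adjusted p = 0.039). Of 17 immediate early and heat shock genes 2 fell (median -0.69) and 13 had IUHG libraries below every control (11.3% of all genes did). Without control 1, 9 fell, *Egr1*, *Atf3*, *Fosb* and *Dusp1* among them (median -0.89). The count was 0 without control 2, without control 3, without IUHG 1 and without IUHG 2, and 2 without IUHG 3. The spread within the controls was wide, with *Fosb* at 22.2, 60.2 and 106 TPM in control and 2.91, 8.39 and 15.4 TPM in IUHG gonads. Summed TPM of the 17 genes was 683, 942 and 1323 TPM in control and 470.3, 487 and 598 TPM in IUHG gonads. *Fos* also had means of 523 TPM in control and 174 TPM in IUHG PGCs. The part of these genes in the other differences was not tested. Of 21 proliferation genes, the cyclin gene *Ccnb2* and the replication licensing gene *Mcm2* rose (log2 fold changes 0.28 and 0.27, adjusted p = 0.024 and 0.028). Without control 1 *Ccnb2* had an adjusted p of 0.047 and *Mcm2* of 0.054, and both lost the call in each fit without 1 of the other 5 libraries.

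Germ cell transcripts in the same libraries were measured for reference. *Ddx4*, the vasa homologue of all germ cells, stood at 47.8, 64.3 and 59.7 TPM in control and 73.4, 69.0 and 57.1 TPM in IUHG gonads (log2 fold change 0.21, standard error 0.124, limma adjusted p = 0.38), and the groups overlapped. *Dazl*, the licensing factor for gametogenesis, stood at 156, 206 and 199 TPM in control and 294, 271 and 233 TPM in IUHG gonads and missed the threshold (log2 fold change 0.51, standard error 0.116, limma adjusted p = 0.061). Summed TPM of 16 pan-germ genes was 706, 644 and 658 TPM in control and 1011, 910.1 and 802 TPM in IUHG gonads, where *Pou5f1* and *Sall4* rose (log2 fold changes 0.92 and 0.96). *Sall4* had an adjusted p of 0.054 without control 1, where *Pou5f1*, *Dppa3* and *Dnd1* were called. Of 18 pluripotency genes 9 rose, where 1.43% of all genes rose, and none fell (median 0.85, against 10 and 1 without control 1). The nuclear receptor gene *Esrrb* led, at 5.03, 4.76 and 5.25 TPM in control and 16.7, 14.4 and 12.6 TPM in IUHG gonads (log2 fold change 1.36, standard error 0.124, limma adjusted p = 0.0028). *Dppa2*, a chromatin factor gene of early germ cells, stood at 5.36, 4.58 and 6.28 TPM in control and 12.3, 15.2 and 14.0 TPM in IUHG gonads (log2 fold change 1.22, standard error 0.134, limma adjusted p = 0.0065). The number of pluripotency genes that rose was 5 without control 2, 6 without control 3 and 2 without any 1 IUHG library. In PGCs 9 of the 18 genes rose. Of 31 meiosis genes only *Rad21l*, a meiotic cohesin, fell (log2 fold change -1.30, standard error 0.267, limma adjusted p = 0.047), and none was past the threshold without any 1 of control 1, control 2, control 3, IUHG 2 and IUHG 3. The median of the 31 meiosis genes was -0.28 (-0.40 without control 1). In limma 11 of them had an unadjusted p below 0.05, against 19.9% of all genes. Every IUHG library lay below every control in 7 of the 31 and above in 1, against 11.3% and 14.5% of all genes. Without IUHG 1, 4 meiosis genes fell (median -0.47), and without IUHG 3 the median was -0.02. Summed TPM of the 31 genes was 661, 1046 and 858 TPM in control and 1009, 768 and 652 TPM in IUHG gonads, with the groups fully overlapping. In PGCs, where 1.06% of all genes rose and 1.99% fell past the adjusted p, 18 of 30 meiosis genes fell (median -1.20). None of the 4 Y-linked genes passed, or had an unadjusted p below 0.05, in limma, and their summed TPM was 51.3 in control 1 and 0 in the rest.

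Single gonad-enriched genes with the clearest changes were ranked by p in each direction, among DEGs called with all libraries and without control 1 and without overlap of the groups, and the first 8 of each direction were taken. *Serpina3a*, a serine protease inhibitor gene (ENSMUSG00000041536.13, chromosome 12, 104112724 to 104121896), stood at 70.7, 72.1 and 68.8 TPM in control and 24.6, 25.4 and 23.5 TPM in IUHG gonads (log2 fold change -1.49, standard error 0.0590, limma adjusted p = 5.6e-05). It was called in every alternative run, and PGCs had 0.893 TPM on average. *Pla2g4b*, a phospholipase gene, stood at 9.84, 11.4 and 12.1 TPM in control and 2.86, 4.56 and 2.52 TPM in IUHG gonads (log2 fold change -1.52, standard error 0.184, limma adjusted p = 0.0096). The other 6 that fell were *Hbb-bs*, *Hbb-bt*, *Cwc22*, *Gm13697*, *Gm13694* and *Gm13696*. Of those that rose, *Aire*, the autoimmune regulator that drives tissue antigens in the thymus, stood at 1.33, 1.80 and 1.56 TPM in control and 6.62, 5.35 and 8.84 TPM in IUHG gonads (log2 fold change 1.61, standard error 0.189, limma adjusted p = 0.0091). *Gbp2b*, an interferon-induced guanylate-binding protein gene, stood at 1.78, 1.00 and 1.07 TPM in control and 4.59, 4.38 and 3.56 TPM in IUHG gonads (log2 fold change 1.19, standard error 0.189, limma adjusted p = 0.023), and lost the call without control 2, control 3 or any 1 IUHG library (adjusted p up to 0.10). *Gm4613* stood at 4.56, 7.27 and 4.91 TPM in control and 34.2, 40.1 and 42.1 TPM in IUHG gonads, and 53.0% of its 31-base words also occur in the ribosomal protein gene *Rpl37a*, so its reads may be shared. The predicted genes *Gm49083*, *Gm47101* and *Gm50350* rose from 22.4, 9.53 and 0.448 TPM to 58.0, 36.8 and 3.21 TPM on average. The remaining 2, *Rex2* and *Zfp600*, belong to a cluster described next.

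The DEGs were partly grouped along chromosomes. Of the 111 DEGs, 25 (22.5%) lay in 5 runs of at least 3 called genes with less than 1 Mb between neighbours. The genotypes of the pooled fetuses at these loci are not given, and their part in these calls was not tested. On chromosome 2, from 83961503 to 83987235 of GRCm38, all 5 tested genes fell (*Gm13693*, *Gm13695*, *Gm13696*, *Gm13694* and *Gm13697*). *Gm13697* stood at 37.6, 32.0 and 34.2 TPM in control and 17.2, 14.6 and 15.4 TPM in IUHG gonads (log2 fold change -1.09, standard error 0.0910, limma adjusted p = 0.0023). *Cwc22*, a splicing factor gene elsewhere on this chromosome (ENSMUSG00000027014.14, chromosome 2, 77881159 to 77946375), fell alongside, at 714, 539 and 639 TPM in control and 275, 263 and 276 TPM in IUHG gonads (log2 fold change -1.21, standard error 0.0903, limma adjusted p = 0.0015). In the coding transcripts of the older GENCODE M1 annotation, 43.4% of the 31-base words of *Cwc22* recur in *Gm13693*, and at least 98.7% of the words of the 5 genes recur in other genes, so reads of these 6 genes cannot be placed with certainty and their changes are not independent. All 6 stayed past the adjusted p in each fit that left out 1 library.

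On chromosome 10, from 22158569 to 22444036, all 5 tested genes were called, all but *Gm16531* also without control 1. *Raet1d*, *H60b*, *Gm1972* and *Gm16531* fell, and *Raet1e* rose. In the fits without 1 library *Raet1d* and *H60b* kept the call in all 6, *Gm1972* only without control 1 (adjusted p up to 0.093 otherwise) and *Gm16531* in none (adjusted p up to 0.13). RAET1 and H60 proteins are ligands of NKG2D, the activating receptor of natural killer cells. *H60b* stood at 2.56, 2.89 and 2.93 TPM in control gonads and was listed at 0 in all 3 IUHG libraries (limma adjusted p = 0.0037). *Raet1e* stood at 3.33, 4.59 and 2.72 TPM in control and 8.08, 8.00 and 9.85 TPM in IUHG gonads (log2 fold change 1.10, standard error 0.173, limma adjusted p = 0.022), and lost the call without control 3 or any 1 IUHG library (adjusted p up to 0.086). *Raet1e* and *Raet1d* overlap on the genome and *Raet1e* shares 53.7% of its 31-base words with *Raet1d*, so reads can pass between them. In PGCs *Raet1d* had means of 47.8 TPM in control and 32.2 TPM in IUHG PGCs and *H60b* of 1.35 TPM in control and 0.589 TPM in IUHG PGCs, with adjusted p of 0.17 and 0.46.

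On chromosome 4, from 146156824 to 147809788, 7 of 26 tested genes were called and all 7 rose, with all but *Gm21411* also called without control 1. They were the zinc finger genes *Zfp600*, *Rex2*, *Zfp988*, *Zfp985*, *Zfp979* and *Zfp984* and the predicted gene *Gm21411*. *Zfp984* stood at 9.22, 5.39 and 8.26 TPM in control and 22.4, 21.9 and 18.2 TPM in IUHG gonads (log2 fold change 1.36, standard error 0.175, limma adjusted p = 0.011), and *Zfp979* at 9.70, 3.22 and 7.85 TPM in control and 21.1, 23.3 and 27.0 TPM in IUHG gonads (log2 fold change 1.75, standard error 0.302, limma adjusted p = 0.030). Control 2 was the lowest library for both. *Rex2* and *Zfp600* had 96.1% and 89.0% of their words in other coding genes, so reads are shared within the cluster. The calls of *Zfp979* and *Zfp985* were lost without control 3 or any 1 IUHG library (adjusted p up to 0.11 and 0.097), and that of *Zfp984* without IUHG 1 or IUHG 2 (adjusted p up to 0.061). Among the fits without 1 library, *Zfp600* and *Zfp988* kept the call only without control 1 (adjusted p up to 0.10 and 0.15 otherwise) and *Gm21411* only without IUHG 3 (up to 0.12). *Rex2* lost the call without control 2, IUHG 1 or IUHG 2 (adjusted p up to 0.055). On the X chromosome, 4 of 18 tested genes between 37209348 and 37901770 rose, namely the homeobox genes *Rhox5*, *Rhox6* and *Rhox9* and *Gm9*. *Rhox6* stood at 13.2, 18.4 and 23.3 TPM in control and 72.9, 46.5 and 64.8 TPM in IUHG gonads and *Rhox9* at 21.3, 32.5 and 41.5 TPM in control and 115, 75.0 and 90.0 TPM in IUHG gonads, and in PGCs *Rhox6* had means of 509 TPM in control and 811 TPM in IUHG PGCs. *Rhox6* kept the call in all 6 fits without 1 library, *Rhox5* in 4, and *Rhox9* and *Gm9* in 2 each (adjusted p up to 0.098). The last run held *Hbb-bt*, *Hbb-bs*, *Hbb-bh1* and *Trim5* on chromosome 7, and *Trim5* lost the call in each of the 6 fits (adjusted p up to 0.11).

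**Figure D5:**
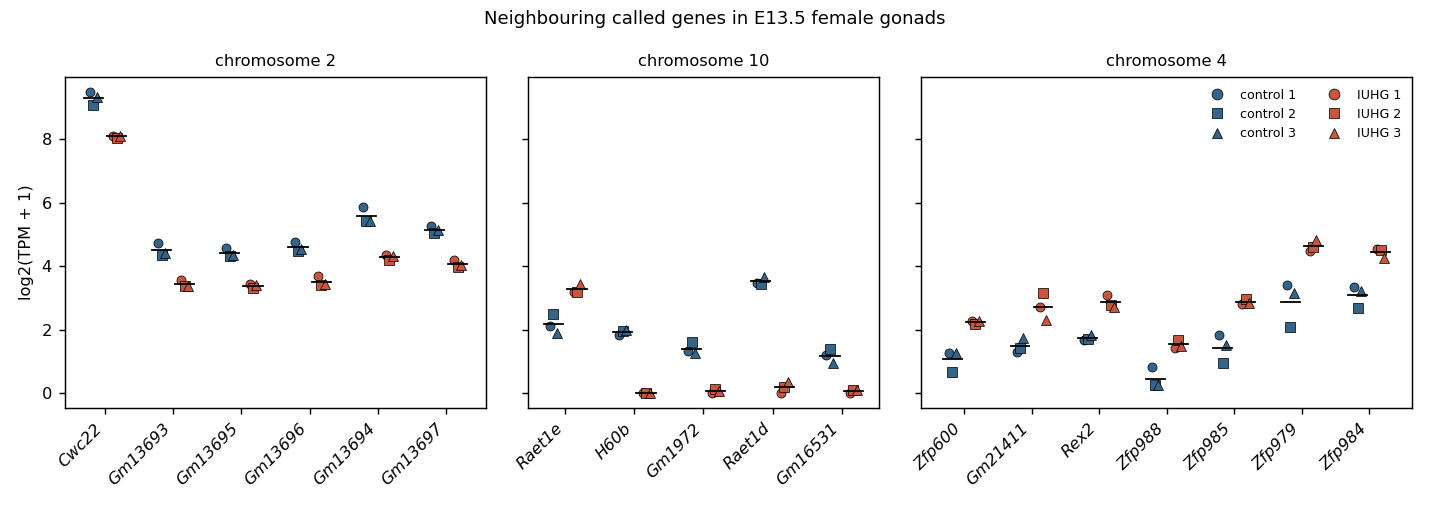
Level as log2(TPM + 1), on the vertical axis, of the called genes of 3 runs and of *Cwc22*, in chromosome order within each run, for control and IUHG libraries (points, marked by replicate number) with group means (lines). The chromosome 2 copies are lower by a similar amount in all IUHG libraries, *H60b* and *Raet1d* are near 0 in IUHG gonads, and the chromosome 4 zinc finger genes are higher.

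Most DEGs of gonads were not DEGs of sorted PGCs, where changes were measured less precisely. The median standard error of a log2 fold change was 0.331 in PGCs and 0.109 in gonads. A missing call in PGCs therefore does not show that a change was absent there. Of the 69 genes that rose in gonads, 55 were tested in PGCs, where 418 of 16539 genes (2.53%, 0.853% upward and 1.67% downward) were DEGs at the same thresholds. In PGCs 11 of the 55 also rose and none fell, and 42 had a positive log2 fold change (median 0.60). Of the 42 genes that fell in gonads, 20 were tested in PGCs, of which 5 fell (*Fos*, *Gm8399*, *Lypd11*, *Rad21l* and *Rad51ap2*), *Gm42047* rose, and 14 had a negative log2 fold change (median -0.56). The median of all genes in PGCs was 0.14. The somatic matrix genes were low in PGCs, with *Col1a1* at 2.33 TPM in control and 2.67 TPM in IUHG PGCs and *Lum* at 3.19 TPM in control and 0.647 TPM in IUHG PGCs, against 422 and 117 TPM in gonads. The difference in effect between gonads and PGCs was not tested.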

How the data were processed

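RNA-seq of 3 control and 3 IUHG female gonad samples at E13.5, which the labels call biological replicates, was used, with E13.5 female PGC libraries (3 and 3) for reference. The deposited gonad tables hold TPM and FPKM per gene, which the authors made with HISAT2 and StringTie. The submitters' processing notes also name mm39, STAR and featureCounts, but the gonad tables' gene positions matched GRCm38 (48.0% of matched genes shared a start or an end, against 1.67% for mm9). Rows were summed per gene ID. The authors' coverage column (mean depth per base of a gene), divided by FPKM, gave the aligned sequence per library. The tables hold no counts, so the counting error of a TPM value is unknown.

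TPM was compared as log2(TPM + 1) with limma 3.58.1 (R 4.3.3, eBayes with a trend) over genes with a mean of at least 1 TPM in either group, with Benjamini-Hochberg adjustment over all of them. This scale understates the change of low genes. DEGs were defined by an adjusted p below 0.05 with a log2 fold change of 1 or more in size, and members of gene lists were counted at the adjusted p alone. Members, lists and comparisons were chosen with earlier results of these data known. Named genes were defining markers, up to 4 called members of lowest p per list, the 8 gonad-enriched DEGs of lowest p per direction and runs of DEGs, and the further members named were chosen after their values were seen. The scripts were tested on simulated data. As alternatives, FPKM values, 0.1 as pseudocount, all genes without a filter, median-of-ratios scaling, quantile normalization, eBayes without a trend, the replicate number as a block, and fits without each library were run. Promoters are from RefSeq (GRCm38.p6), and shared 31-base words were counted in the coding transcripts of GENCODE M1. A few members of the lists are counted but not reported here by name.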

Additional observations from a re-analysis of the deposited data

Results flagged for a closer look

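Among the genes named from gonads, 3 had groups that overlapped neither in gonads nor in E13.5 female PGCs, with opposite directions. The difference between the tissues was not tested, and none of the 3 passed the test in PGCs. *Cwc22*, which fell in gonads (log2 fold change -1.21), had means of 25.8 TPM in control and 58.8 TPM in IUHG PGCs (log2 fold change 1.08, limma adjusted p = 0.12). *Smad7*, which fell in gonads from 27.9 to 21.7 TPM, had means of 6.32 TPM in control and 16.3 TPM in IUHG PGCs (log2 fold change 1.18, limma adjusted p = 0.077). *Raet1e*, which rose in gonads from 3.55 to 8.64 TPM, had means of 19.6 TPM in control and 12.0 TPM in IUHG PGCs (log2 fold change -0.68, limma adjusted p = 0.18). The reads of *Cwc22* and *Raet1e* can be shared with near-identical genes. Gonads and PGCs came from different matings and library protocols.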

How the results depend on the processing

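None of the 92 called genes followed singly changed direction under any alternative run. Other called genes named in the text, such as *Dcn* and *Hba-a2*, were not followed through all of these runs. The balance of DEGs changed direction, with 69 higher and 42 lower in all libraries, 20 and 25 without IUHG 1, 18 and 20 without IUHG 2, and 1 and 4 with no filter. Without control 1 the list medians changed sign for Sertoli cells (-0.80 to 0.06), steroidogenic cells (-0.56 to 0.18), neural cells (-0.40 to 0.20) and pregranulosa cells (0.03 to -0.09), and for neural cells also without IUHG 2 (0.04). Medians near 0 in all libraries, for retinoic acid (-0.02), endothelium (-0.01), surface epithelium (-0.04) and Notch genes (0.02), also changed sign under some alternatives. The 111 DEGs of gonads became 56 with FPKM, 5 with no filter on low TPM, 52 with eBayes without a trend and 38 to 110 without 1 library. The 449 genes past the adjusted p became 7 with no filter, 84 without a trend and 63 to 332 without 1 library. The 110 DEGs without control 1 became 69 with FPKM, 1 with no filter, 15 without a trend and 11 to 80 without a further library. The 418 DEGs of PGCs became 65 with no filter, 697 with median-of-ratios scaling, 676 with quantile normalization, 229 without a trend and 42 to 878 without 1 library. The 49 called list members became 1 with no filter, 5 without a trend and 9 to 50 without 1 library. For interstitium, 6 calls became 1 with no filter, 2 without a trend and 3 to 6 without 1 library. For erythroid cells, 8 became 0 with no filter, 5 with quantile normalization, 1 without a trend and 2 to 6 without 1 library. For extracellular matrix, 11 became 1 with no filter, 2 without a trend and 5 to 11 without 1 library. With no filter 33908 genes, many near 0 TPM, entered the fit and the adjustment, against 18150 with it. The cause of the changes under any of these settings was not tested. Deviations of same-numbered gonad samples had correlations of -0.044, 0.049 and -0.065. With 3 libraries a group these values cannot decide whether the numbers pair the samples, and PGC samples were not examined in this way. With the replicate number as a block, gonad DEGs numbered 56, genes past the adjusted p 145, DEGs without control 1 115, PGC DEGs 932, called list members 29 and extracellular matrix calls 7. The embryonic share of β-like globin TPM differed by 30.4 percentage points, also with FPKM, and by 29.7 without control 1. Of 92 called named genes, 27 kept the call in all 6 fits without 1 library and 9 in none. The gonad tables used here hold no counts, so no count model was run, and 3 libraries a group limit the precision.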

Other observations

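The following genes lie outside the lists and were picked because they passed the test, so they add no support to any list. *Mfap4*, a microfibril-associated glycoprotein gene, stood at 286, 265 and 244 TPM in control and 172, 144 and 157 TPM in IUHG gonads (log2 fold change -0.75, standard error 0.0790, limma adjusted p = 0.0056), with no overlap between groups. *Serpinh1*, the collagen chaperone gene, fell by less (log2 fold change -0.33, adjusted p = 0.0093), as did the minor collagen genes *Col16a1* (log2 fold change -0.55, adjusted p = 0.0075) and *Col12a1* (log2 fold change -0.60, adjusted p = 0.016). In fits without 1 library, *Mfap4* and *Col16a1* kept the call in all 6, *Serpinh1* lost it without IUHG 2 (adjusted p = 0.053), and *Col12a1* lost it without IUHG 1 or IUHG 3 (adjusted p up to 0.061). *Prrx1*, a homeobox gene of mesenchyme, stood at 32.0, 34.2 and 31.9 TPM in control and 20.2, 23.4 and 22.8 TPM in IUHG gonads (log2 fold change -0.54, standard error 0.0777, limma adjusted p = 0.016), and *Osr2* at 92.5, 77.6 and 87.3 TPM in control and 60.5, 55.8 and 61.4 TPM in IUHG gonads (log2 fold change -0.52, standard error 0.0748, limma adjusted p = 0.016). *Prrx1* lost the call without control 2, IUHG 1 or IUHG 2 (adjusted p up to 0.065) and *Osr2* without control 3, IUHG 1 or IUHG 2 (adjusted p up to 0.073). *Nfix*, a nuclear factor I gene, fell (log2 fold change -0.70, adjusted p = 0.0096) and lost the call without IUHG 2 (adjusted p = 0.052).

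Among genes that rose, *Cxcr4*, the receptor for the chemokine CXCL12, stood at 13.4, 13.7 and 11.7 TPM in control and 21.2, 23.3 and 23.2 TPM in IUHG gonads (log2 fold change 0.76, standard error 0.0912, limma adjusted p = 0.0093), with means of 1.79 TPM in control and 4.46 TPM in IUHG PGCs. *Wt1os*, the antisense transcript of *Wt1*, rose (log2 fold change 0.41, adjusted p = 0.022), and lost the call without control 2, control 3, IUHG 2 or IUHG 3 (adjusted p up to 0.097) and with the replicate number as a block. Without knowledge of the strand used in counting, its reads cannot be told apart from those of *Wt1*. *Cxcr4* and *Lgals7*, a galectin gene, lost the call only without IUHG 2 among the fits without 1 library (adjusted p = 0.053 for each). *Lgals7* rose from 69.0 to 95.4 TPM (log2 fold change 0.46, adjusted p = 0.0096).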
